A study of Mus musculus with 8 samples.

Results

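The genes of sterol and fatty acid synthesis were followed in mouse epidermis as 31 genes, taken by symbol from the 16902 genes listed in both deposited tables. They comprise 7 genes of the mevalonate steps, 11 genes of the steps around squalene and on to cholesterol, 5 genes of regulation and sterol transport, and 8 genes of fatty acid synthesis. All 31 were listed in both tables, and all 31 passed the filter on low values (a mean normalised count of at least 10 in either table), as did 14614 genes in all. RNA came from epidermis freed with dispase from the back skin of CD1 mice, and was sequenced as stranded, polyadenylated RNA in 8 libraries. The 4 groups of 2 libraries, 1 from a female and 1 from a male, were IMQ-treated mice labelled Ovol1 -/-, IMQ-treated Ovol1 +/+ controls, untreated mice labelled Ovol1 -/- and untreated Ovol1 +/- controls. The control genotype thus differed between the treatments, so Ovol1 dose and IMQ cannot be told apart where the controls of both are compared. IMQ stands for imiquimod, which inflames mouse skin, and Ovol1 encodes a transcription factor with zinc fingers that acts in skin epithelium. Wherever 2 values are given for a group, that of the female library precedes that of the male. The sources used here do not give the construction of the Ovol1 allele, the age of the mice, the dose and duration of IMQ, or whether a library held 1 mouse or several. P-values therefore measure only the spread between these libraries.

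The libraries held 28.6 to 43.1 M reads. Ovol1 had 13457 and 13077 normalised counts in the IMQ libraries labelled knockout, against 7635 and 9556 in the IMQ controls. In untreated epidermis it had 27433 and 26601 in the libraries labelled knockout, against 16629 and 14582 in the controls. Its transcript was thus higher, not lower, under the knockout label, with no overlap in either treatment (limma log2 fold change 0.64, SE 0.15, adjusted p = 0.0880 under IMQ, and 0.79, SE 0.15, adjusted p = 0.346 untreated). The files do not show which exons were counted, so this level does not check the genotype, and "labelled knockout" below means the label alone. The basal keratinocyte keratin gene Krt14 had 169079 to 258042 normalised counts over the 8 libraries, and the dermal collagen gene Col1a1 had 435 to 1535 in the female and 5356 to 23561 in the male libraries.

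Cholesterol is built from acetyl-CoA through mevalonate, isoprenoids and squalene, and fatty acids are built from acetyl-CoA through malonyl-CoA and then elongated and desaturated. Both routes are switched on by the sterol regulatory element-binding proteins (SREBPs), which Scap escorts out of the endoplasmic reticulum when sterols are scarce and Insig proteins hold back when they are plentiful. In epidermis, keratinocytes use the products for the lipid layers of the barrier, and sebaceous glands, which belong to the hair follicles, use them for sebum.

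Promoters from the RefSeq table on GRCm38.p6, 250 bases before to 50 after an annotated start, were matched for 26 of the 31 genes, and those of Sc5d, Hmgcs1, Mvk and Mvd are shown because these 4 had the smallest p-values under IMQ among the matched genes. That of Scap is also shown, since it was the only gene of the 31 above the controls in both IMQ labelled knockout libraries. Each is written 5′ to 3′ on the strand of its gene, and capitals mark the NF-Y box (CCAAT, or ATTGG where it lies on the other strand) and the SRE core (TCACNCCAC), the sequence that SREBPs are known to bind.
Hmgcs1 chr13:119690101-119690400 (plus strand): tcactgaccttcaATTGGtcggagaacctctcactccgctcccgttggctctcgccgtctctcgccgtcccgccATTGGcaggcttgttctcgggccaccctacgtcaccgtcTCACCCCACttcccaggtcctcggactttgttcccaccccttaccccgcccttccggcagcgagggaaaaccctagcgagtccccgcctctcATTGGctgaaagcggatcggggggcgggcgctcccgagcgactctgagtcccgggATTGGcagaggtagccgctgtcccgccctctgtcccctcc
Mvk chr5:114444019-114444318 (plus strand): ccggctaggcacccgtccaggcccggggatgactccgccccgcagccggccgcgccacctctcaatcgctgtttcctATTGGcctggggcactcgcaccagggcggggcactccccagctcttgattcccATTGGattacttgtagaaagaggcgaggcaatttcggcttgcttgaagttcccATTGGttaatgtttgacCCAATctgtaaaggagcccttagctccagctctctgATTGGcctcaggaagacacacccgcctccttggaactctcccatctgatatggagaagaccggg
Mvd chr8:122443373-122443672 (minus strand): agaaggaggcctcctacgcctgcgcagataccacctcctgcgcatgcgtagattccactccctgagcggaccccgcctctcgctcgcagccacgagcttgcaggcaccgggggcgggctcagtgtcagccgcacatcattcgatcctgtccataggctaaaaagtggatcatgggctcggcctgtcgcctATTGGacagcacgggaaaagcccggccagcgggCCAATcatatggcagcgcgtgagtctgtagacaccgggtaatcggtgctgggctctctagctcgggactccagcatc
Sc5d chr9:42264251-42264550 (minus strand): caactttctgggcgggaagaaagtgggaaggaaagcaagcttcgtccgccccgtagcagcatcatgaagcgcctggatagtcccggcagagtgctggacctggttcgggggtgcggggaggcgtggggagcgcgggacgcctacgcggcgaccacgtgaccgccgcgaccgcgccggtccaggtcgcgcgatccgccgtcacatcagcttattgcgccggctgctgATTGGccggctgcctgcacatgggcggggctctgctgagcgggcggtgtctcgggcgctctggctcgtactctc
Scap chr9:110333038-110333337 (plus strand): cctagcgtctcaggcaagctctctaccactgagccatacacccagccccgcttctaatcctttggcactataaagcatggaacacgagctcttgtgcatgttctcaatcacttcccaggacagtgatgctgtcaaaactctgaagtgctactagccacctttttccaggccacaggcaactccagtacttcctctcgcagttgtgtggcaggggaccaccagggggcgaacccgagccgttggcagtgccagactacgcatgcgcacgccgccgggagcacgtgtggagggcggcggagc
The SRE core was found in the Hmgcs1 window alone among the 26 genes, with its first base at position -137 from the start, and in 1.44% of all 27025 genes with a promoter in the table. Its longer form, the classical SRE-1, which contains the core on the same letters, was in none of the 26, and in 0.0999% of all. The NF-Y box, bound by a factor known to act beside SREBPs, was in 21 of 26 genes (80.8%), against 41.1% of all genes in the table and 42.2% of those also tested for expression. The Hmgcs1 window held 4 of them, Mvk 5, Mvd 2, Sc5d 1 and Scap none. Whether the box goes with the values of the genes under IMQ was not tested. Acat2, Acaca and Fads2 also had none in the windows searched, and both IMQ labelled knockout libraries were below both controls for each. The one Acaca window, chr11:84195188-84195487, lies inside the gene, which starts at 84129672 in the annotation. A promoter at that first start was not searched. Elovl6, whose groups overlapped, had none either. Tm7sf2, which like Scap did not have a negative log2 fold change, held 1. The Sp1 box (GGGCGG) was in 22 of 26 (84.6%), against 38.2% of all genes in the table and 65.0% of those tested. The E-box (CACGTG) was in 5 of 26 (19.2%), against 8.09% of all and 11.1% of those tested. Both strands were searched for each motif, a gene with several windows counted once if any of them matched, and a match or its absence describes these letters only.

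The 31 genes lay at very different levels. In CPM (reads scaled to a common library size) per kilobase of exon, Hmgcs1 ranked first with a median of 109 over the 8 libraries, and ranged between 30.5 in the female IMQ labelled knockout and 172 in the male IMQ control. Pmvk followed with a median of 70.2 (46.9 to 117), Msmo1 with 68.4 (36.6 to 94.7), Cyp51 with 66.0 (21.4 to 110) and Acly with 65.9 (36.8 to 77.6). The ranges of all 5 overlapped, so their order is not firm. In the female IMQ labelled knockout Hmgcs1 was below Pmvk, Msmo1, Acly, Me1 and Srebf2. At the other end were Fads1 with a median of 1.63 (0.823 to 4.66), Acss2 with 1.48 (1.00 to 4.24), Fdps with 0.915 (0.252 to 1.71) and Fads2 with 0.256 (0.147 to 1.06). Fdps is identical over 67.2% of a transcript to Gm43738, a gene that overlaps it on the same strand, and is 96.1% to 98.9% identical to 4 processed pseudogenes, so its reads could have been split or discarded in counting. Acat2, at 97.7% identity with Acat3 over 65.6% of a transcript, and Acaca, Fdft1 and Me1, each with a near-identical processed pseudogene, are uncertain for the same reason. Fdft1, Cyp51, Srebf1 and Acss2 overlap other protein-coding genes on the opposite strand, and Tm7sf2 overlaps Vps51 on its own strand, while the sources used here do not state the strand setting of the counting.

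The first question was how the labelled knockouts differed from controls under IMQ. There the sterol carrier gene Stard4 fell in the labelled knockouts, to 0.209-fold of the controls, and it was the one gene of the 31 to pass the test (limma, adjusted p under 0.05), where 0.281% of all genes tested fell and 0.157% rose. With sex as a block, since the libraries pair by sex, 12 of 31 fell, against 1.86% of all genes, and none rose, against 0.588%. Of these 12, 5 belong to the mevalonate steps (Hmgcs1, Mvk, Pmvk, Mvd and Idi1), 5 to the later sterol steps (Fdft1, Cyp51, Msmo1, Nsdhl and Sc5d), and the others are Stard4 and Fasn. Together the 31 genes took 0.227% and 0.303% of the reads in the female and male labelled knockouts, against 0.399% and 0.509% in the female and male controls. At an unadjusted p under 0.05, 21 of 31 were lower, against 11.9% of all genes, and none was higher, against 10% of all genes. In 25 of 31 both labelled knockout libraries were below both controls, against 26.4% of all genes, and in 1, Scap, both were above, against 26.6%. The log2 fold change was negative for 29 of 31, against 51.2% of all genes, with Scap and Tm7sf2 as the exceptions, and its median over the 31 was -0.76, against -0.01 over all genes. On recovered reads edgeR called 1 of 31, Stard4, where it called 0.151% of all genes lower and 0.144% higher. With the block edgeR called 10 lower, against 1.43% of all genes, and none higher, against 0.568%, and DESeq2 without a block called 14 lower, against 4.5%. In tissue RNA, fewer cells of a type and less RNA per cell cannot be told apart.

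**Figure D1:**
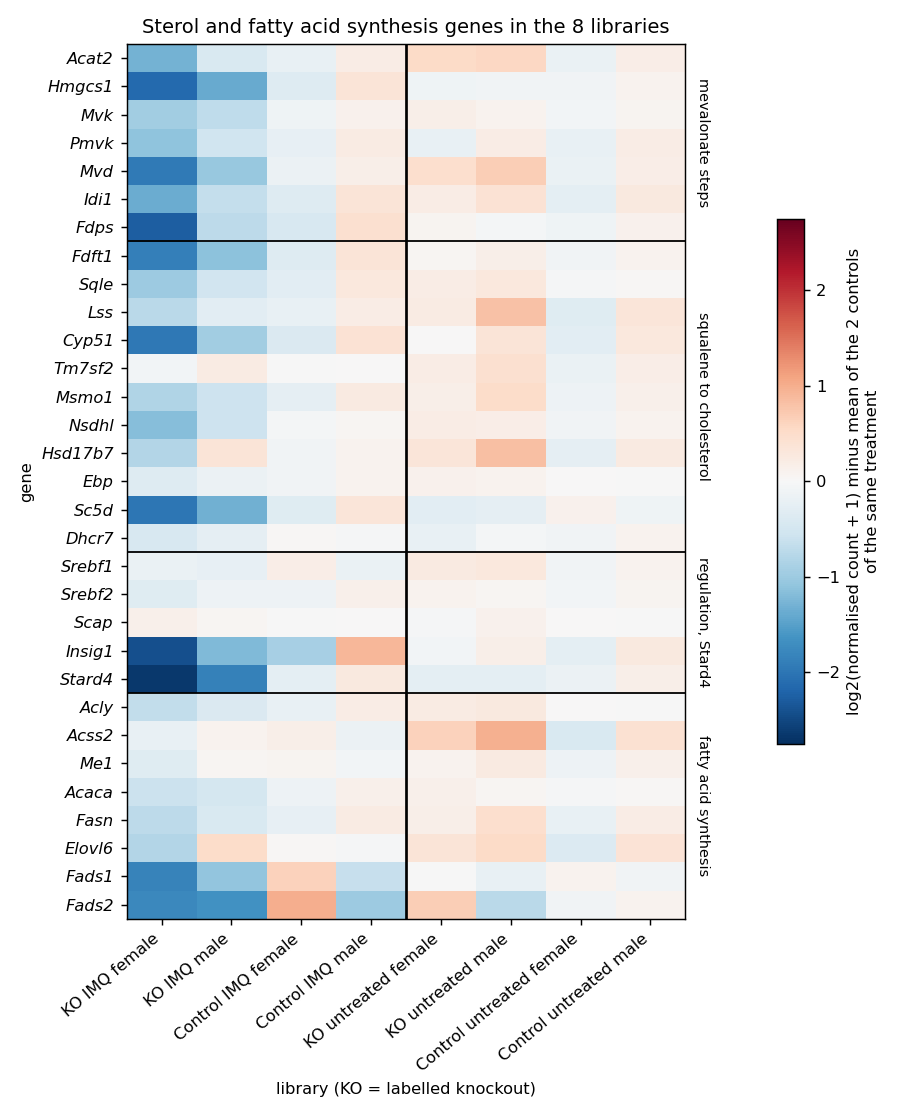
Each cell is a gene's log2(normalised count + 1) in 1 library minus the mean of the 2 controls of the same treatment, for the 31 genes (rows, by role) in the 8 libraries (columns; KO stands for labelled knockout). The 2 IMQ labelled knockout columns are blue, below the controls, for most genes, deepest for Stard4 in the female, and the 2 untreated labelled knockout columns are mostly pale red.

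In the mevalonate steps all 7 genes had negative log2 fold changes under IMQ, from -1.76 to -0.82 with a median of -1.02, and all 7 had an unadjusted p under 0.05. Hmgcs1, whose enzyme makes HMG-CoA at the head of the route, had 4320 and 7255 normalised counts in labelled knockouts and 14749 and 24296 in controls. The log2 fold change was -1.76, or 0.296-fold (SE 0.29; limma adjusted p = 0.0605, and 0.0159 with sex as a block). Mvd, which makes isopentenyl diphosphate, had 282 and 524 in labelled knockouts and 964 and 1224 in controls (log2 fold change -1.50, SE 0.29; limma adjusted p = 0.0714, and 0.0178 with the block). Mvk, the mevalonate kinase, had 729 and 864 in labelled knockouts and 1293 and 1532 in controls (log2 fold change -0.83, SE 0.14; limma adjusted p = 0.0646, and 0.0296 with the block). For all 3 the groups stood apart, and the female library was the lower one in each group. Idi1, the isopentenyl diphosphate isomerase, had 719 and 1175 in labelled knockouts and 1449 and 2395 in controls. Pmvk, the phosphomevalonate kinase, had 2480 and 3661 in labelled knockouts and 4585 and 6178 in controls. Both passed with the block only, at limma adjusted p-values of 0.0306 for Idi1 and 0.0187 for Pmvk. Acat2, the acetoacetyl-CoA thiolase, had 753 and 1393 in labelled knockouts and 1617 and 2123 in controls. Fdps, which joins isoprenoids into farnesyl diphosphate, had 32.8 and 97.9 in labelled knockouts and 118 and 222 in controls. Both were also apart from the controls but passed in neither fit, at limma adjusted p-values of 0.158 for Acat2 and 0.161 for Fdps.

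From squalene synthesis to cholesterol, 10 of 11 genes had negative log2 fold changes, with a median of -0.70, and 7 had an unadjusted p under 0.05. Sc5d, the lathosterol desaturase, had 809 and 1278 normalised counts in labelled knockouts and 2537 and 4010 in controls (log2 fold change -1.65, SE 0.27; limma adjusted p = 0.0553, and 0.0271 with the block). Fdft1, the squalene synthase, had 1723 and 2917 in labelled knockouts and 4948 and 8095 in controls (log2 fold change -1.50, SE 0.29; limma adjusted p = 0.0714, and 0.0187 with the block). Nsdhl, which acts in removing the methyl groups of lanosterol, had 518 and 783 in labelled knockouts and 1125 and 1207 in controls (log2 fold change -0.87, SE 0.19; limma adjusted p = 0.0848, and 0.0494 with the block). In these 3 the highest labelled knockout library was below the lowest control. Cyp51, the lanosterol demethylase, had 2916 and 5851 in labelled knockouts and 8683 and 14899 in controls. Msmo1, which acts after it, had 6953 and 8312 in labelled knockouts and 10370 and 14643 in controls. Both passed with the block, at limma adjusted p-values of 0.0145 for Cyp51 and 0.0342 for Msmo1, and neither without it, at 0.112 and 0.136. The other 6 genes of this stretch passed in neither fit. Sqle, the squalene epoxidase, had 4035 and 5623 in labelled knockouts and 6575 and 9919 in controls (log2 fold change -0.76, SE 0.22; limma adjusted p = 0.127). Lss, the lanosterol synthase, had 1640 and 2228 in labelled knockouts and 2375 and 3127 in controls. Dhcr7, a reductase of the last steps, had 2258 and 2582 in labelled knockouts and 3166 and 3003 in controls. Ebp, a sterol isomerase, had 819 and 938 in labelled knockouts and 980 and 1129 in controls. These 4 were apart from the controls, at log2 fold changes of -0.51 for Lss, -0.35 for Dhcr7 and -0.26 for Ebp. Hsd17b7, a sterol ketoreductase gene, overlapped, with 1461 and 3260 in labelled knockouts and 2390 and 2747 in controls, and so did Tm7sf2, a sterol reductase gene, with 272 and 339 in labelled knockouts and 284 and 292 in controls.

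Among the genes of regulation and transport the picture was uneven. Stard4, whose protein carries sterols between membranes, had 574 and 989 normalised counts in labelled knockouts and 2979 and 4378 in controls. It fell by 2.26 on the log2 scale (SE 0.28; limma adjusted p = 0.0350, and 0.0123 with the block), and edgeR called it too, at an adjusted p of 0.0435. The call rests on few libraries: without the block, leaving out any 1 library except the male IMQ labelled knockout gave limma adjusted p-values of 0.0653 to 0.132, and fitting the IMQ table by itself gave 0.157. With the block it was lost only where the female IMQ labelled knockout was left out (0.0855). Insig1, a sensor gene that SREBPs themselves switch on, had 616 and 1434 in labelled knockouts and 1758 and 6264 in controls (log2 fold change -1.82, SE 0.59; limma adjusted p = 0.153, and 0.0511 with the block). The groups were apart, but the 2 controls differed from each other more than the nearest labelled knockout did from the lower one. Values of the SREBP genes themselves and of Scap lay closer together. Srebf2 had 8106 and 9264 in labelled knockouts and 9352 and 11185 in controls. Srebf1 had 2219 and 2170 in labelled knockouts and 2893 and 2223 in controls. Scap had 5043 and 4779 in labelled knockouts and 4544 and 4631 in controls. These 3 had limma adjusted p-values of 0.343, 0.435 and 0.625.

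**Figure D2:**
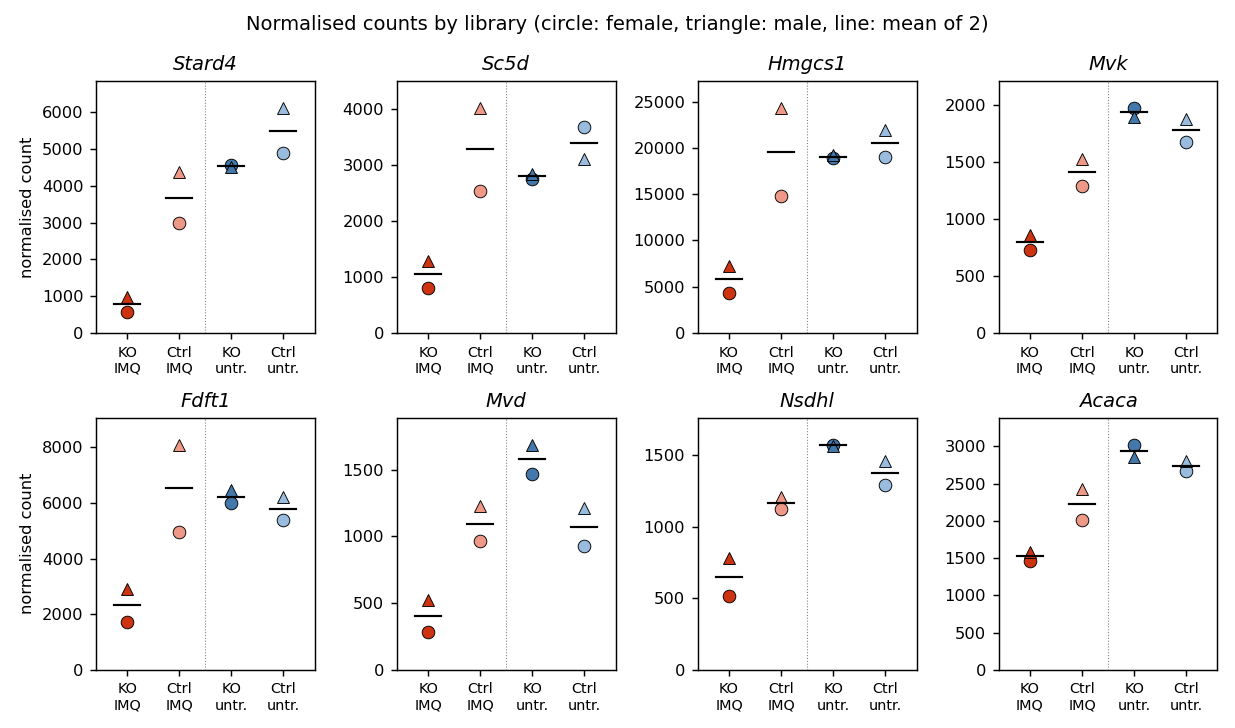
Normalised count (y axis, from 0) of the 8 genes with the smallest p-values under IMQ, by group (x axis; KO, labelled knockout; Ctrl, control; untr., untreated), with a point per library and a line at the mean of 2. In each panel both IMQ labelled knockout libraries are below both IMQ controls. The IMQ and untreated tables were scaled separately, so levels across the dotted line are not on 1 scale.

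In fatty acid synthesis all 8 genes had negative log2 fold changes under IMQ, with a median of -0.54 and 5 at an unadjusted p under 0.05. Acaca, the acetyl-CoA carboxylase that makes malonyl-CoA, had 1461 and 1583 normalised counts in labelled knockouts and 2012 and 2434 in controls (log2 fold change -0.54, SE 0.13; limma adjusted p = 0.0920, and 0.0644 with the block). Fasn, the fatty acid synthase, had 6294 and 7798 in labelled knockouts and 8924 and 12200 in controls (log2 fold change -0.57, SE 0.22; limma adjusted p = 0.193, and 0.0462 with the block). Acly, which makes cytosolic acetyl-CoA from citrate, had 5995 and 7295 in labelled knockouts and 8260 and 11124 in controls. For these 3 the groups stood apart, by less than in the mevalonate steps, and Fasn was the one gene of the group to pass, with the block only. The desaturase genes Fads1 and Fads2 had the most negative values of the group, -1.46 and -1.71, with a large spread. Fads1 had 122 and 208 in labelled knockouts and 684 and 283 in controls, and Fads2 had 14.9 and 16.2 in labelled knockouts and 106 and 26.3 in controls. In both the female control was well above the other 3 libraries. Acss2, the acetate-dependent acetyl-CoA synthetase, had 315 and 391 in labelled knockouts and 407 and 327 in controls. Me1, the cytosolic malic enzyme that supplies NADPH, had 4498 and 5902 in labelled knockouts and 5921 and 5386 in controls. Elovl6, a fatty acid elongase gene, had 2794 and 6968 in labelled knockouts and 5010 and 4800 in controls, below both controls for the female and above both for the male. In these 3 genes the groups overlapped.

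Within the sexes, the median log2 fold change of the 31 genes under IMQ was -0.83 in the female pair, with 30 of 31 negative, and -0.62 in the male pair, with 25 of 31 negative. Hmgcs1, Mvk, Fdft1 and Sc5d were close to equal in both pairs: for Hmgcs1 the female pair gave -1.77 and the male pair -1.74, and for Sc5d both gave -1.65. The pairs had opposite signs for Acss2, Me1, Elovl6, Hsd17b7 and Tm7sf2, and were farthest apart among these for Elovl6, at -0.84 in females and 0.54 in males. The male control was the highest of the 4 IMQ libraries for most sterol genes. Without it, the median over the 31 genes was -0.47.

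Markers of skin cell types were also followed in the IMQ groups. Of the fibroblast markers, 12 of 12 were negative with a median log2 fold change of -1.26, and their summed normalised counts were 4448 to 65477 in labelled knockouts and 11797 to 104513 in controls. Of the adipocyte markers, 8 of 9 tested were negative with a median of -1.27, with sums of 935 to 2189 in labelled knockouts and 1434 to 2561 in controls, and Lep and Pck1 were listed at 0 in some libraries. Of the suprabasal keratinocyte markers, 9 of 10 were negative with a median of -0.41 (sums of 363183 to 526217 in labelled knockouts and 508383 to 725704 in controls), and of the basal ones 5 of 7, with a median of -0.07 (sums of 466633 to 546552 in labelled knockouts and 603361 to 609958 in controls). Leukocyte markers were negative in 7 of 9 tested with a median of -0.31 (sums of 42976 to 46449 in labelled knockouts and 35982 to 74123 in controls). Sebaceous markers were positive in 11 of 16, with a median of 0.17 (sums of 44996 to 73976 in labelled knockouts and 54029 to 61312 in controls). Several of these medians had opposite signs in the female and the male libraries. The adipocyte median was -2.72 for females and 0.26 for males, the leukocyte median -0.64 for females and 0.09 for males, and the sebaceous median -0.62 for females and 1.06 for males. The fibroblast median was -1.82 for females and -0.68 for males, the suprabasal one -0.68 for females and -0.45 for males, and the basal one 0.04 for females and -0.13 for males. No marker passed the limma test without the block. With it Flg2, a suprabasal marker that encodes a protein of the cornifying layers, fell by 1.72 on the log2 scale (limma adjusted p = 0.0123, against 0.0818 without the block), and no other marker passed. The part of these cells in the lower sterol genes was not tested.

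The wider pathways were followed in lists of other genes. None of these passed the limma test in any comparison, with or without the block. Of 10 further genes of sterol and isoprenoid synthesis, 4 were negative under IMQ with a median log2 fold change of 0.04. Of 16 genes of cholesterol uptake, storage and efflux, 12 were negative with a median of -0.24. Of 9 genes of SREBP processing and Insig turnover, 4 were negative with a median of 0.02, and of 27 further genes of fatty acid synthesis and activation, 11 were negative with a median of 0.18. In this last list the median was -0.26 for females, with 18 of 27 negative, and 0.26 for males, with 9 of 27 negative. The medians for females and males were -0.10 and 0.14 for further sterol and isoprenoid genes, and -0.57 and -0.14 for uptake, storage and efflux. For SREBP processing they were 0.16 and -0.02.

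In untreated epidermis no gene passed the test, whether among the 31 or among all genes tested (limma; at an unadjusted p under 0.05, 408 genes or 2.79% were higher and 244 or 1.67% lower; edgeR called 0 and DESeq2 89). The log2 fold change was positive for 25 of 31 genes, against 49.5% of all genes, with a median of 0.17, against -0.0023 over all genes. Both labelled knockout libraries were above both controls in 13 of 31, against 17.4% of all genes, and below both in 2, Sc5d and Stard4, against 16.4%. The 31 genes together took 0.487% and 0.553% of the reads in the female and male labelled knockouts, against 0.404% and 0.508% in the controls.

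Acss2 was the one gene of the 31 at an unadjusted p under 0.05. It had 1301 and 1639 normalised counts in labelled knockouts and 625 and 1109 in controls (log2 fold change 0.81, SE 0.28; limma adjusted p = 0.950). Mvd had 1467 and 1687 in labelled knockouts and 925 and 1209 in controls (log2 fold change 0.57, SE 0.29). Acat2 had 2196 and 2279 in labelled knockouts and 1342 and 1733 in controls (log2 fold change 0.55, SE 0.29). In these 3 both labelled knockout libraries were above both controls, but for Acss2 and Mvd the gap between the groups was smaller than that between the 2 controls. Srebf1, the SREBP gene tied mainly to fatty acid synthesis, had 3704 and 3833 in labelled knockouts and 2918 and 3350 in controls. Tm7sf2 had 652 and 760 in labelled knockouts and 492 and 643 in controls. Msmo1 had 17474 and 22121 in labelled knockouts and 14145 and 17312 in controls, so the lowest labelled knockout library was barely above the highest control. Hsd17b7 had 4226 and 5926 in labelled knockouts and 2798 and 3985 in controls. Lss overlapped, with 2084 and 3088 in labelled knockouts and 1411 and 2235 in controls. With sex as a block none of the 31 passed either, against 0.0411% of all genes higher and 0.0137% lower. At an unadjusted p under 0.05 that fit had 7 of 31 higher, against 3.78% of all genes, and none lower, against 2.14%.

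Sebaceous markers were also followed in this comparison, and none of them passed the limma test with or without the block. They were positive in 15 of 16, with a median log2 fold change of 0.76 and summed normalised counts of 104930 to 106101 in labelled knockouts and 57474 to 90242 in controls. Their median was 0.98 for females and 0.43 for males. Fibroblast markers were negative in 11 of 12, with a median of -0.49 (-0.90 in the female pair, with 12 of 12 negative, and 0.11 in the male pair, with 4 of 12 negative), and their sums were 5322 to 26261 in labelled knockouts and 10216 to 24135 in controls. The part of either in the values of the 31 genes was not tested.

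**Figure D3:**
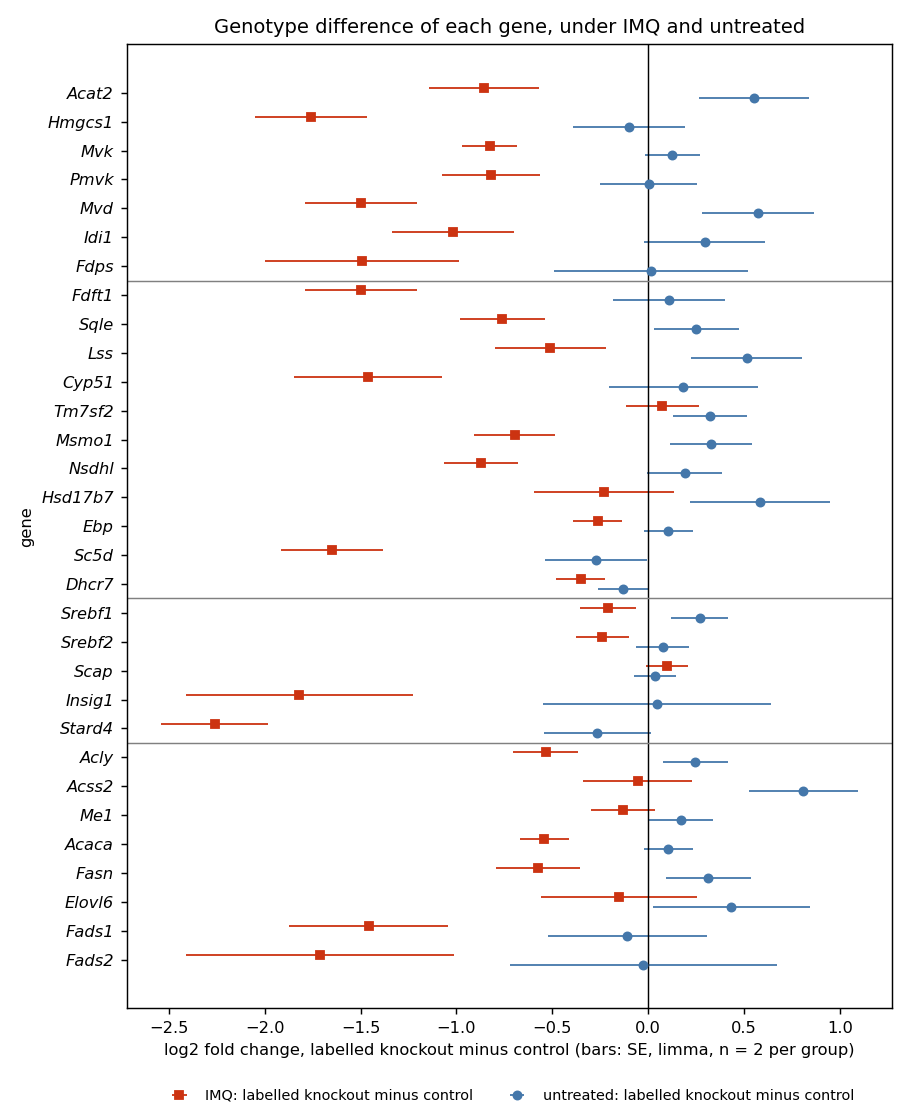
Log2 fold change of each of the 31 genes, labelled knockout minus control (x axis), under IMQ (squares) and untreated (circles), with bars of 1 SE from limma and n = 2 per group. The IMQ values lie left of 0 for 29 genes, down to -2.26 for Stard4, and the untreated values lie right of 0 for 25.

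The genotype difference under IMQ was then set against that in untreated epidermis. The difference of the 2 was negative for 30 of 31 genes, all but Scap, against 52.7% of all genes, and its median was -1.01, against -0.03 over all genes. At an unadjusted p under 0.05, 16 of 31 were lower, against 6.02% of all genes, and none was higher, against 4.05%. After adjustment no gene passed, of the 31 or of all tested, by limma or edgeR, while DESeq2 called 99 genes, with 5 of the 31 among those lower, against 0.424% of all genes. Mvd had the most negative value, -2.07 (SE 0.41), followed by Stard4 with -1.99 (SE 0.39), and both had a limma adjusted p of 0.476. Hmgcs1 was at -1.66 (SE 0.41), Fdft1 at -1.60 (SE 0.41), Sc5d at -1.38 (SE 0.38), Nsdhl at -1.06 (SE 0.27), Mvk at -0.95 (SE 0.20) and Acaca at -0.65 (SE 0.18), with the same adjusted p. In 10 genes, Acaca, Acat2, Acly, Ebp, Msmo1, Mvd, Mvk, Nsdhl, Sqle and Srebf1, both labelled knockout libraries were above both controls untreated and below both controls under IMQ, against 3.23% of all genes. The control genotype differs between the 2 comparisons, which bears on each of these values.

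IMQ libraries were also set against untreated ones within each genotype label, as CPM of recovered reads and without a test, since the tables were scaled separately and IMQ and control genotype go together in the controls. In the labelled knockouts 30 of 31 genes had a negative log2 ratio, with a median of -0.79, against -0.01 over all genes. In the controls 13 of 31 were negative, with a median of 0.16, against 0.02 over all genes. In the labelled knockouts 10 genes were at least 2-fold lower under IMQ without overlap, against 12.8% of all genes: Acss2, Cyp51, Elovl6, Fdft1, Hmgcs1, Insig1, Msmo1, Mvd, Sc5d and Stard4. In the controls 1 gene was, Elovl6, against 6.91% of all genes. None was at least 2-fold higher under either label, against 11.7% of all genes in labelled knockouts and 7.75% in controls. Without a minimum fold, 27 were lower without overlap in labelled knockouts, against 40.1% of all genes, and 1 was higher, against 39.9%, while in controls 6 were lower, against 32.3%, and 6 higher, against 35.3%. On the deposited scale, where each table has its own size factors, the medians of the 31 genes were -1.21 in labelled knockouts and -0.12 in controls. The median over all genes is not given on that scale.

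Some genes were lower under IMQ under both labels, though the IMQ controls were Ovol1 +/+ and the untreated controls Ovol1 +/-. Of all genes, 40.1% in labelled knockouts and 32.3% in controls were lower without overlap. The share of all genes lower under both labels is not given, so these genes are listed as a description only. Elovl6 had 90.5 and 229 CPM in IMQ labelled knockouts, against 435 and 487 CPM in untreated labelled knockouts, and 164 and 156 CPM in IMQ controls, against 265 and 454 CPM in untreated controls. Acss2 had 10.2 and 12.8 CPM in IMQ labelled knockouts, against 34.4 and 43.1 CPM in untreated ones, and 13.4 and 10.6 CPM in IMQ controls, against 16.8 and 29.8 CPM in untreated controls. Tm7sf2 had log2 ratios of -0.87 in labelled knockouts and -0.67 in controls. For these 3 the IMQ libraries were below the untreated ones under both labels, and the same held for Me1, Dhcr7 and Ebp. Stard4 had 18.6 and 32.4 CPM in IMQ labelled knockouts, against 121 and 119 CPM in untreated ones, while its controls overlapped, with 97.7 and 142 CPM under IMQ, against 131 and 164 CPM untreated. At the other end, Scap had 163 and 157 CPM in IMQ labelled knockouts, against 99.9 and 111 CPM in untreated ones, and 149 and 150 CPM in IMQ controls, against 106 and 103 CPM in untreated controls. It was the one gene of the 31 higher under IMQ without overlap under both labels. Of all genes, 39.9% in labelled knockouts and 35.3% in controls were higher without overlap, and the share under both is not given. Pmvk, Lss and Fads1 were higher without overlap in the controls, with log2 ratios of 0.70, 0.87 and 0.89, and at -0.08, -0.11 and -0.45 in the labelled knockouts. Fads1 had 22.4 and 9.19 CPM in IMQ controls, against 8.86 and 7.68 CPM in untreated ones, so its ratio rests mostly on the female library. With 1 library left out, the labelled knockout ratio was -0.40 to 0.18 for Pmvk and -0.36 to 0.19 for Lss.

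**Figure D4:**
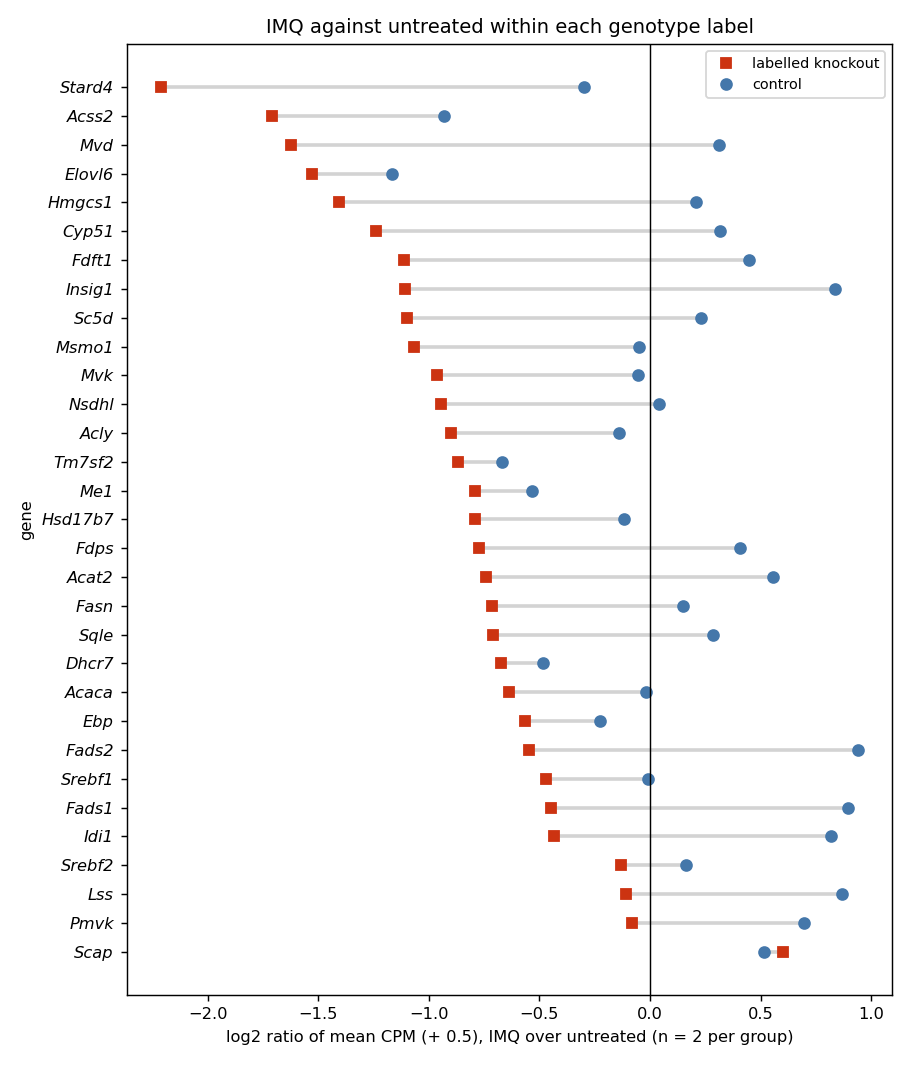
Log2 ratio of mean CPM (0.5 added), IMQ over untreated (x axis), for each of the 31 genes in labelled knockouts (squares) and controls (circles), ordered by the labelled knockout value, n = 2 libraries per group. The labelled knockout ratio lies left of 0 for 30 genes and left of the control ratio for all genes except Scap.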

How the data were processed

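Polyadenylated RNA of dispase-separated epidermis was sequenced as 100-bp paired reads (Illumina HiSeq, stranded kit), per the labels' protocols. The submitters' processing notes list, in no order, mm10, STAR 2.5.2a, Trimmomatic 0.35, R 3.6.1 and DESeq2 1.24.0. The sources used here do not name the counter, its strand setting or the annotation. The deposited values, called normalised counts, are a signal made by the authors: reads divided by 1 size factor per library, with the untreated and IMQ tables scaled separately. Values were whole multiples of 1 step within 0.001 read in 100% of cases, so whole reads were recovered, 28.6 to 43.1 M per library.

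Genotype comparisons used limma 3.58.1 in R 4.3.3 (trend, robust) on log2(value + 1) for 14614 genes with a mean of at least 10 in either table. It fitted 4 group means over 8 libraries (4 residual degrees of freedom) with Benjamini-Hochberg adjustment over all genes tested and a threshold of 0.05. The log2 scale with 1 added understates changes of low genes. Replicate numbers were assigned by sex from the sample titles. The male minus female deviations of groups correlated across genes by 0.145 to 0.463 over the 6 pairs of groups, all above 0.1, so blocked values are given where they change a call. The highest value was that of the untreated groups. The IMQ groups, where the block changed most calls, correlated by only 0.160. IMQ against untreated used CPM of recovered reads with TMM factors (edgeR 4.0.16) and 0.5 added, without a test. Alternatives were a pseudocount of 0.5 or 5, a minimum mean of 50 or none, quantile or TMM scaling, moderation without trend and robust fitting (plain moderation), a fit per table, the block, edgeR's quasi-likelihood test and DESeq2 1.42.0 on recovered reads, a threshold of 0.10, and each library left out. Leaving out each library with the block was added after the data were seen.

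Exon lengths and gene overlaps are from the annotation of GRCm38, near-identical transcripts (at least 95% over 25%) from BLAST 2.17.0, and promoters from RefSeq. Python 3.11.15, pandas 2.3.3, numpy 2.4.6 and matplotlib 3.10.9 were used otherwise, and the fits were tested on simulated counts. Named were, per comparison, each gene of the 31 that passed and then those of smallest p up to 8, and for IMQ against untreated the 4 highest and the 4 lowest; others of the 31 are given by role after their values were seen. The genes and all lists were chosen with earlier results of these data known.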

Additional observations from a re-analysis of the deposited data

How the results depend on the processing

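Over 29 settings, none of the 688 values of named genes in the genotype comparisons changed direction. In many of these the fold change stays the main one by construction, so its direction could not change. This holds for plain moderation, each table alone, the block, the filters and the threshold of 0.10. It also holds within 1 treatment when a library of the other is left out. The genes were also named for small p-values in the same data. Of the 688 values, 613 kept their side of the threshold, 65 passed it only under the alternative and 10 lost it. Among all genes tested, 0 passed untreated: 5 did with a pseudocount of 5, 8 with each table alone, 8 with the replicate block, 6 in edgeR with the block, 89 in DESeq2 and 15 at an adjusted p under 0.10, and 0 to 27 with 1 library left out, with or without the block. Under IMQ 64 passed, and 0 did with plain moderation or each table alone, 358 with the replicate block, 292 in edgeR with the block, 1242 in DESeq2, 633 at an adjusted p under 0.10, and 0 to 1306 with 1 library left out. Of the 31 genes, 1 passed under IMQ, and 0 did with plain moderation or each table alone. With quantile scaling 3 of the 31 passed, beside 74 of all genes tested. Of the 31, 12 passed with the replicate block, 10 in edgeR with the block, 14 in DESeq2 and 8 at an adjusted p under 0.10. Which of the 31 passed depended on the library left out. With the block and without the female IMQ labelled knockout, their median log2 fold change under IMQ was -0.62. Without the block and without the male one it was -0.95. For the difference between the treatments, 0 genes passed, and DESeq2 gave 99, of which 5 of the 31 (Stard4, Mvd, Mvk, Hmgcs1 and Fdft1), and leaving out a library gave 0 to 2; each table alone gives no value for it.

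The median log2 fold change of the 31 genes with 1 library left out was -0.95 to -0.47 under IMQ, 0.04 to 0.33 untreated and -1.25 to -0.76 for the difference. For IMQ against untreated, deposited values gave medians of -1.21 in labelled knockouts and -0.12 in controls, with 21 and 2 genes at least 2-fold lower. On that scale the untreated and IMQ libraries have separate size factors, and the share of all genes is not given. These medians and counts therefore do not single out the 31 genes. Without the 2-fold minimum 27 of 31 were lower and 1 higher in labelled knockouts, and 6 lower and 6 higher in controls. With 1 library left out the median was -1.06 to -0.57 in labelled knockouts and -0.12 to 0.23 in controls, with 5 to 18 genes lower in labelled knockouts, and 0 to 2 lower and 0 to 3 higher in controls. The cause of these changes was not tested. Where 1 library of a group remained, the fits take its spread from the other groups. With 2 libraries per group, small differences were not detectable, and Fads2, at 14.9 to 106 normalised counts, is limited by depth as well.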

Other observations

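The 5 tested genes outside all lists whose values over the 8 libraries, centred within each table, followed the mean of the 31 genes most closely were Clip4 (Pearson r = 0.995), Mospd2 (0.993), Shroom3 (0.987), Wfikkn1 (0.986) and Rfx2 (0.985). These are a description over 8 libraries that share group, depth and scaling, and the genes were picked as the highest of all tested. Their log2 fold changes under IMQ were -0.83 for Clip4, -1.09 for Mospd2, -0.95 for Shroom3, -0.51 for Wfikkn1 and -0.81 for Rfx2. Set against the same mean, the 31 genes themselves ranged between 0.29 for Tm7sf2 and 0.99 for Nsdhl, apart from Scap with -0.58. Each of the 31 is part of that mean, which raises its correlation, so these values do not compare with those of the 5 outside genes.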
